A study of Mus musculus with 6 samples.

Results

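Synaptoporin (*Synpr*) and 9 other genes for synaptic vesicle membrane proteins were followed in RNA-seq of mouse pancreatic islets. *Synpr* was selected on its own rise in cKO islets in these samples. The other 9 were taken by family name: the physins *Syp* and *Sypl*, the gyrins *Syngr1*, *Syngr2*, *Syngr3* and *Syngr4*, and *Sv2a*, *Sv2b* and *Sv2c* of the SV2 family. These are 10 of the 55060 genes in the deposited table, and all 10 were among the 21211 genes with a mean level of at least 0.1 that were tested. Levels are FPKM, which divide the fragments counted for a gene by gene length and a library size. The library sizes implied by these values differ from the reads counted on genes, as given with the processing of the data.

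The study deleted *Parn*, which encodes a ribonuclease that shortens poly(A) tails, in β cells and sequenced islet RNA of 12-week-old mice, 3 samples for each genotype. The cKO mice carried 2 floxed alleles of *Parn* and Cre recombinase under the *Ins2* promoter. The Ctrl mice were *Parn* f/f mice or other littermates, and whether any carried Cre is not given in the sources used here. Loss of *Parn* and the presence of Cre itself therefore cannot be told apart in these comparisons. Cre acts in β cells, whereas α, δ and further cell types of the islets keep *Parn*, and the number of animals behind each sample was not given in the sources used here.

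Physins and gyrins are related small proteins that cross the vesicle membrane several times, and SV2 proteins are larger glycoproteins built like sugar transporters. Synaptophysin, the product of *Syp*, is the classic marker of synaptic vesicles. β cells hold both insulin granules and small synaptic-like microvesicles, and synaptophysin and SV2 proteins are known in endocrine islet cells as well as in the nerve fibers and ganglia that supply the islets.

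The level of *Parn* was 6.64, 8.34 and 7.38 in Ctrl replicates 1, 2 and 3 and 4.97, 4.61 and 6.15 FPKM in cKO replicates 1, 2 and 3. Every cKO sample was below every Ctrl sample, as the labels would have it, and the remaining level includes the cells without Cre. The floxed region is only a part of the gene, so an FPKM over the whole gene can also count *Parn* RNA that lacks it. The log2 fold change of *Parn* was -0.44 (standard error 0.131, unadjusted p = 0.0135 and adjusted p = 0.545 from limma). The label of islet tissue was matched by *Ins2*, at an FPKM between 109030 in cKO replicate 1 and 178676 in Ctrl replicate 3, and by *Gcg*, *Sst* and *Ppy*, the hormones of α, δ and PP cells, of which the lowest value was 4166, for *Sst* in Ctrl replicate 1. In bulk islets, fewer cells of a type and less RNA per cell cannot be told apart.

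Ctrl replicate 1 stood apart from the other samples. Its Pearson correlation with each of the other 5, across genes on the log2 scale, was between 0.943 and 0.958, against 0.960 to 0.9755 among those 5. The macrophage gene *Lyz2* reached 539 FPKM in Ctrl replicate 1, with 15.6 to 56.0 elsewhere, and the 7 leukocyte markers summed to 897 in it and to 147 to 248 in the other samples. The sex-linked RNAs differed between samples too, and were looked at after the other values were seen. *Xist*, which is made from the inactive X chromosome, was at 24.1, 20.4 and 42.5 FPKM in Ctrl and at 29.9, 39.4 and 0.139 in cKO. The Y-linked *Ddx3y* had 6.31, 3.17 and 0 in Ctrl and 1.16, 0 and 9.83 in cKO. Ctrl replicates 1 and 2 and cKO replicate 1 thus held both RNAs, Ctrl replicate 3 and cKO replicate 2 had *Ddx3y* at 0, and cKO replicate 3 had almost no *Xist*. Their part in the results below was not tested, and *Syp* lies on the X chromosome. The labels do not say that the samples are separate animals, so the p-values measure only the spread between these samples.

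*Synpr* was at 5.63, 3.12 and 3.39 in Ctrl replicates 1, 2 and 3 and at 7.86, 9.03 and 8.70 FPKM in cKO replicates 1, 2 and 3. All cKO samples were above all Ctrl samples, and the highest Ctrl value was that of replicate 1. The mean was 4.05 ± 1.38 in Ctrl and 8.53 ± 0.604 in cKO (± SD, 3 samples each), a ratio of 2.11. On the scale of log2(FPKM + 1), which understates the change of genes with a low level, the difference was 0.95 with a standard error of 0.191. Without Ctrl replicate 1 it was 1.16. Since *Synpr* was chosen by this rise, these values describe it and no test is given. The reads behind them numbered 928, 463 and 532 in Ctrl and 1303, 1482 and 1485 in cKO, so counting alone adds an error of at most 4.65% to any of these levels.

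*Syp* was the most abundant of the 10 genes, at 35.1, 43.7 and 39.3 FPKM in Ctrl and 46.0, 44.4 and 46.5 in cKO. The cKO samples lay close together and above all 3 Ctrl samples, the nearest pair being Ctrl replicate 2 and cKO replicate 2. The means were 39.4 ± 4.30 and 45.6 ± 1.08 (SD, n = 3 each), and the log2 fold change of 0.21 (standard error 0.0974) did not pass limma's test, with an unadjusted p of 0.067 and an adjusted p of 0.693. The log2 fold change was 0.14 without Ctrl replicate 1, with an unadjusted p of 0.141. The unadjusted p was 0.0211 without Ctrl replicate 2 and between 0.0507 and 0.148 in 13 of the 15 alternatives. It was 0.0158 with voom, the method of limma for counts, on reads recalculated from the FPKM. This method weights read numbers by their precision and scales them to the reads counted on the tested genes, not to the implied library sizes. With it the median log2 fold change of all genes moved from -0.01 to 0.07.

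*Sypl*, whose product synaptophysin-like protein 1 is found on transport vesicles of many cell types, was at 6.87, 5.61 and 5.40 FPKM in Ctrl and 4.93, 5.54 and 6.99 in cKO. Here the genotypes overlapped, and the highest and the lowest sample were both cKO. Its log2 fold change was -0.03 with a 95% interval from -0.38 to 0.32.

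The 3 physins together came to 47.6, 52.4 and 48.1 FPKM in Ctrl and to 58.8, 59.0 and 62.2 in cKO. Of the mean difference of 10.6 FPKM, *Syp* made up 6.29 and *Synpr* 4.48. *Synpr* was 11.8%, 5.95% and 7.04% of the physin sum in Ctrl and 13.4%, 15.3% and 13.99% in cKO. Set against *Syp* alone, *Synpr* stood at 16.1%, 7.14% and 8.61% of its level in Ctrl and at 17.1%, 20.3% and 18.7% in cKO. Ctrl replicate 1 came close to cKO replicate 1 on both measures, so the separation of the genotypes in these shares is narrow at that sample. These shares contain the gene that was selected and were not tested.

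Among the gyrins, *Syngr2*, the form found in most tissues, was the most abundant at 24.3, 25.6 and 17.6 FPKM in Ctrl and 25.4, 21.5 and 22.8 in cKO. *Syngr1*, a form of neuronal synaptic vesicles, followed with 9.68, 14.2 and 13.9 in Ctrl and 12.4, 13.3 and 13.5 in cKO. In both genes the cKO samples fell within the range of the Ctrl samples. Their log2 fold changes were 0.06 for *Syngr2* and 0.07 for *Syngr1*, with 95% intervals from -0.31 to 0.43 and from -0.29 to 0.43, and the sign of each changed when single samples were left out.

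*Syngr3*, another synaptic vesicle gyrin, was at 3.51, 3.07 and 2.53 FPKM in Ctrl and 3.13, 4.89 and 4.57 in cKO. Replicates 2 and 3 of cKO were above all Ctrl samples, while cKO replicate 1 was within their range. The log2 fold change was 0.35 (standard error 0.172, unadjusted p = 0.0818 and adjusted p = 0.711 from limma). Without cKO replicate 1 the unadjusted p was 0.0167, and with weights for each sample it was 0.0419. In the other 13 alternatives it lay between 0.0638 and 0.238, the highest without cKO replicate 2, where the log2 fold change was 0.26. *Syngr4* was at 0.172, 0.254 and 0.540 in Ctrl and 0.398, 0.345 and 0.221 FPKM in cKO, which rests on 3 to 9 reads per sample. At this depth no difference was detectable, and the means were 0.322 in Ctrl and 0.321 in cKO.

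*Sv2a*, the most widely expressed SV2 gene and the one whose product binds the antiseizure drug levetiracetam, was at 19.3, 30.7 and 36.1 FPKM in Ctrl and 23.7, 20.6 and 26.6 in cKO. The Ctrl samples spread more widely than the cKO samples, and Ctrl replicate 1 was the lowest of all 6. The means were 28.7 ± 8.55 and 23.7 ± 2.98 (SD, n = 3 each), a log2 fold change of -0.23 with an unadjusted p of 0.346 and an adjusted p of 0.848 (limma). Without Ctrl replicate 1 it was -0.48 with an unadjusted p of 0.0159, and without Ctrl replicate 3 it was -0.05 with an unadjusted p of 0.831. It was -0.14 without cKO replicate 2.

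*Sv2b*, known mainly from brain, was at 0.937, 0.903 and 1.25 FPKM in Ctrl and 1.15, 1.21 and 1.21 in cKO. The Ctrl samples enclosed the cKO samples, and the log2 fold change was 0.12 (95% interval -0.17 to 0.40).

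*Sv2c*, which in brain is found in few regions, among them the basal ganglia, was at 0.473, 0.341 and 0.496 FPKM in Ctrl and 0.640, 1.06 and 0.958 in cKO. Every cKO sample was above every Ctrl sample, with cKO replicate 1 nearest to them. The means were 0.436 ± 0.0836 and 0.884 ± 0.217 (SD, n = 3 each), a ratio of 2.03 that rests on 80, 52 and 80 reads in Ctrl and 109, 178 and 168 in cKO. The log2 fold change was 0.39 (standard error 0.130), with an unadjusted p of 0.0224 and an adjusted p of 0.583 (limma). The unadjusted p was 0.0657 without Ctrl replicate 2, 0.0665 without cKO replicate 2 and 0.0642 without cKO replicate 3, so the call rests on each of these samples. With the replicate number as a block, the call was lost too, at an unadjusted p of 0.0535 (limma).

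Of the 9 genes taken by family name, 1 was higher and 0 were lower in cKO at an unadjusted p under 0.05 in limma's test, against 4.33% and 3.07% of all genes tested. Every cKO sample was above every Ctrl sample in 2 of the 9, *Syp* and *Sv2c*, and below in 0, against 7.11% and 6.03% of all genes. None of the 9 had an adjusted p under 0.05, and neither did any other gene (0%). Across all genes, 919 were higher and 651 lower at an unadjusted p under 0.05, and voom called 2 genes at an adjusted p under 0.05, *Chgb* and *Ehhadh*. Without Ctrl replicate 1 the adjusted p of *Phlda3* was 0.0278. The median log2 fold change of the 9 was 0.07, against -0.01 for all genes tested. A count this small over 9 genes cannot be set apart from these shares.

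**Figure D1:**
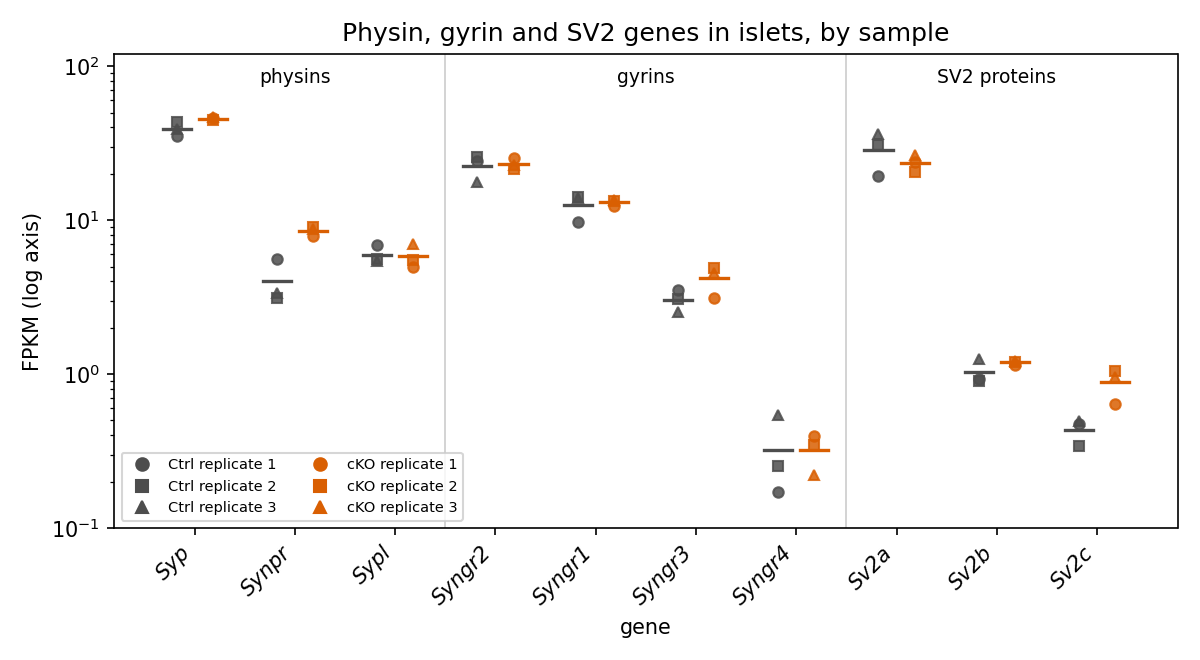
Level of each of the 10 genes in every islet sample, with FPKM on a log axis and genes grouped by family; gray symbols are Ctrl and orange symbols cKO samples, symbol shape gives the replicate and horizontal lines the means. The cKO samples of *Synpr*, *Syp* and *Sv2c* lie above their Ctrl samples, and the other 7 genes overlap.

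The order of the levels was nearly the same in both genotypes. In Ctrl it ran *Syp*, *Sv2a*, *Syngr2*, *Syngr1*, *Sypl*, *Synpr*, *Syngr3*, *Sv2b*, *Sv2c* and *Syngr4*, with means from 39.4 to 0.322 FPKM. The ranges over the 3 Ctrl samples overlapped between *Syp* and *Sv2a*, *Sv2a* and *Syngr2*, *Sypl* and *Synpr*, *Synpr* and *Syngr3*, and *Sv2c* and *Syngr4*. Within each Ctrl sample *Syp* was above *Sv2a*, *Sypl* above *Synpr* and *Synpr* above *Syngr3*, whereas the order of *Sv2a* and *Syngr2* and that of *Sv2c* and *Syngr4* changed between Ctrl samples. In cKO, *Synpr* stood above *Sypl*, with a lowest value of 7.86 against a highest of 6.99, and *Sv2a* and *Syngr2* were the only neighbors whose ranges overlapped. *Sv2a* alone gave 93.2%, 96.1% and 95.4% of the SV2 sum in Ctrl and 93.0%, 90.1% and 92.5% in cKO. The SV2 sum was 20.8, 31.9 and 37.8 FPKM in Ctrl and 25.5, 22.9 and 28.8 in cKO, with overlap.

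Several markers of autonomic neurons were higher in cKO samples, as *Synpr* and *Sv2c* were. Among the 11 neuron markers tested, those that rose past the unadjusted threshold of 0.05 included *Prph*, *Nefm*, *Nefl* and *Chrna3*, where 4.33% of all genes did so and 7.11% had every cKO sample above every Ctrl sample. *Prph*, the intermediate filament protein of peripheral neurons, was at 3.73, 3.59 and 5.11 FPKM in Ctrl and 8.14, 14.2 and 8.85 in cKO (log2 fold change 1.12, unadjusted p = 0.00177 and adjusted p = 0.379 from limma). *Nefm* was at 2.64, 2.02 and 2.30 in Ctrl and 3.44, 5.51 and 3.80 in cKO, and *Chrna3*, a nicotinic receptor subunit of autonomic ganglia, at 0.327, 0.362 and 0.685 in Ctrl and 0.908, 1.20 and 1.05 in cKO. In *Prph*, *Nefm* and *Chrna3*, and in *Chat* and *Elavl3*, every cKO sample was above every Ctrl sample. The value of cKO replicate 2 was the highest of all 6 samples in each of these 5 genes, as it was in *Synpr* and *Sv2c*. The order of the Ctrl samples was not shared. *Synpr* and *Nefm* were highest in Ctrl replicate 1, and *Prph*, *Chrna3*, *Chat*, *Elavl3* and *Sv2c* in Ctrl replicate 3.

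The summed level of the neuron list, led by *Tubb3*, did not separate the genotypes. It was 36.7, 52.1 and 56.3 FPKM in Ctrl and 50.1, 57.7 and 47.2 in cKO, and the most abundant gene of the list, *Tubb3*, was at 14.3, 19.6 and 21.4 in Ctrl and 14.8, 21.5 and 17.7 in cKO. *Tubb3* and *Elavl4*, which endocrine cells express too, overlapped. *Rbfox3*, a marker of mature neurons, lay between 0.256 and 0.537 in the 6 samples. *Th* was at 10.2, 19.7 and 17.6 in Ctrl and 13.99, 5.57 and 8.77 in cKO, and *Dbh*, which marks noradrenergic fibers, was at 0 in 3 of the samples and at most 0.156. None of the 12 neuron markers was at 0 in every sample. *Prph*, *Nefm* and *Chrna3* kept an unadjusted p under 0.05 in every alternative in which they were tested, and *Nefl* lost it in 7 of 14. The part of nerve RNA in the levels of *Synpr* and *Sv2c* was not tested.

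Of the 8 Schwann cell markers, 1 was higher in cKO at an unadjusted p under 0.05 (1 to 2 over the 15 alternatives) and 0 were lower, beside 4.33% and 3.07% of all genes tested. This was *Ngfr*, at 3.94, 1.605 and 0.576 FPKM in Ctrl and 14.5, 10.1 and 7.83 in cKO. The list summed to 21.7, 13.7 and 16.3 in Ctrl and to 30.8, 29.6 and 25.3 in cKO, its most abundant gene was *Mbp*, and *Sox10*, which defines the glial lineage, was at 0.845, 0.354 and 0.217 in Ctrl and 0.410, 1.49 and 1.01 in cKO. The sums separated the genotypes, but without *Ngfr* they were 17.7, 12.1 and 15.7 in Ctrl and 16.3, 19.5 and 17.5 in cKO, which overlap, as did *Sox10*. No Schwann cell marker was at 0 in every sample, and the part of glial RNA was not tested.

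Markers of the other islet cells were read in the same way, beside the 4.33% of all genes that were higher and the 3.07% that were lower. Of the 10 β cell markers, 1 (*Ucn3*) fell and 0 rose past an unadjusted p of 0.05, and the list summed to 235964, 268775 and 276386 FPKM in Ctrl and to 195405, 205244 and 217645 in cKO, mostly *Ins2*. Every cKO sample of *Ins2* and *Iapp* was below every Ctrl sample, and every cKO sample of *G6pc2* was above. With standard errors of 2.87 and 0.72, *Ins2* and *Iapp* had unadjusted p-values of 0.877 and 0.480 (limma). These errors draw on the fitted trend of variance with mean level, not on the spread of these samples alone. The means of *Ins2* were 168013 ± 12091 in Ctrl and 122054 ± 12099 in cKO (SD, n = 3 each). Those of *Iapp* were 20552 ± 3427 in Ctrl and 14015 ± 489 in cKO. Without the variance trend, 1 β cell marker was higher and 3 were lower. The α cell hormone gene *Gcg* overlapped between the genotypes, at 10252, 11721 and 15329 in Ctrl and 8219, 15396 and 12028 in cKO. None of the 4 δ cell markers or the 2 PP cell markers passed in either direction, and their sums overlapped. Of the 8 acinar markers, 1 (*Amy2a1*) was higher, with sums of 12328, 18994 and 6999 in Ctrl and of 31623, 8829 and 26559 in cKO, led by *Ctrb1*. Of the 6 stromal markers, 2 (*Col3a1* and *Lum*) were higher, with sums of 15.9, 7.96 and 11.9 in Ctrl and of 13.3, 39.4 and 39.7 in cKO, led by *Dcn*. Of the 6 endothelial markers, 2 (*Cdh5* and *Plvap*) were higher, with sums of 117.9, 103.7 and 115.05 in Ctrl and of 125.6, 143.3 and 158.2 in cKO, led by *Plvap*. Of the 6 ductal markers, 1 (*Cftr*) was higher and 1 (*Krt7*) lower, with sums between 62.0 and 95.6 that overlapped and *Spp1* as the most abundant gene. Of the 7 leukocyte markers, 1 (*Cd79a*) was lower and 0 were higher, with *Cd74* as the most abundant. Over the 15 alternatives, 1 to 6 stromal, 0 to 4 acinar, 1 to 4 endothelial, 1 to 2 ductal and 0 to 1 β cell, δ cell and leukocyte markers were higher. Lower were 0 to 3 β cell, 0 to 1 ductal and 0 to 1 leukocyte markers. All 6 stromal markers were higher without cKO replicate 1, and 4 acinar markers without cKO replicate 2. Of the genes named here for a low unadjusted p, *Cftr*, *Lum* and *Plvap* kept it under 0.05 in all 15 alternatives, and *Ucn3*, *Amy2a1*, *Col3a1*, *Cdh5*, *Krt7* and *Cd79a* lost it in 2 to 7. No marker of these lists was at 0 in every sample. The part of these cells in the levels of the 10 vesicle genes was not tested.

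Vesicle proteins of other families gave the setting for these genes. The vesicular transporters load transmitters into synaptic vesicles and microvesicles. Of 11 on the list, 6 were tested, and 4 passed as higher in cKO and 0 as lower (unadjusted p below 0.05), beside 4.33% and 3.07% of all genes. The median log2 fold change of the 6 was 0.38. *Slc18a3*, the acetylcholine transporter of cholinergic neurons, was at 1.07, 0.738 and 1.57 FPKM in Ctrl and 2.34, 2.57 and 1.97 in cKO. *Slc10a4*, a vesicle protein of cholinergic and monoaminergic neurons, was at 0.544, 0.453 and 1.06 in Ctrl and 1.54, 2.65 and 1.34 in cKO. In both, cKO replicate 2 was the highest sample, and no cKO sample reached down to the Ctrl samples.

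*Slc18a1*, the monoamine transporter of endocrine cells, was at 2.67, 1.86 and 2.72 FPKM in Ctrl and 4.10, 2.92 and 3.47 in cKO. *Slc18b1*, a polyamine transporter, was at 2.48, 2.61 and 2.56 in Ctrl and 3.20, 3.71 and 3.22 in cKO. The genotypes did not overlap in either gene, but with scaling that leaves out *Ins1* and *Ins2* neither kept an unadjusted p under 0.05, and the count of the list was 2, the lowest of the 15 alternatives, which gave 2 to 4. Of the 15 alternatives, *Slc18a1* lost it in 6 and *Slc18b1* in 3, and *Slc10a4* lost it without Ctrl replicate 2. *Slc32a1*, the GABA and glycine transporter, was at 0 reads in every sample, and *Slc17a6*, *Slc17a7*, *Slc17a8* and *Slc30a3* were too low to be tested.

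Of 19 synapsins and other proteins bound to vesicles, 6 rose and 0 fell past the unadjusted threshold of 0.05, against 4.33% and 3.07% of all genes, with a median log2 fold change of 0.22. The number higher ran from 3, without Ctrl replicate 2, to 9, with voom. The largest difference was in *Rph3a*, a Rab3 effector, at 0.630, 0.493 and 0.0777 FPKM in Ctrl and 3.28, 2.83 and 4.04 in cKO. Its log2 fold change was 1.66 (standard error 0.196, unadjusted p = 9.89e-05 and adjusted p = 0.274 from limma), and it was higher in 3 of 3 cKO samples than in any Ctrl sample. *Rab3a*, a GTPase of secretory vesicles, was at 41.6, 40.7 and 38.7 in Ctrl and 55.4, 51.0 and 47.7 in cKO, and *Rab3d*, its relative on secretory granules, at 34.9, 36.4 and 34.0 in Ctrl and 55.0, 43.1 and 54.0 in cKO. In both, every Ctrl sample was below every cKO sample.

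The other 3 genes of this count were *Dnajc5*, *Sncb* and *Sncg*. *Sncg*, the synuclein of peripheral neurons, was at 15.5, 12.8 and 13.5 FPKM in Ctrl and 18.7, 42.7 and 21.2 in cKO, with cKO replicate 2 far above the rest. Without Ctrl replicate 1, 2 or 3 the unadjusted p of *Sncg* was no longer under 0.05. *Dnajc5*, a chaperone of synaptic vesicles, was at 17.1, 14.9 and 15.95 in Ctrl and 19.1, 19.3 and 18.01 in cKO, and *Sncb* at 7.53, 8.30 and 8.38 in Ctrl and 12.2, 9.65 and 9.18 in cKO. These last 2 differences were small, and each lost an unadjusted p under 0.05 in 7 or 8 of the 15 alternatives. *Syn1*, which tethers vesicles, did not pass, with values from 9.25 to 13.8.

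Of 17 synaptotagmins, the calcium sensors of exocytosis, 16 were tested and 1 was higher and 0 lower, against 4.33% and 3.07% of all genes. *Syt10* was at 1.09, 0.965 and 0 FPKM in Ctrl and 2.81, 4.05 and 5.84 in cKO. Its log2 fold change was 1.67 (SE 0.343, unadjusted p = 0.00227 and adjusted p = 0.392 from limma). It was higher in 3 of 3 cKO samples than in any Ctrl sample. *Syt13*, which held 72.5% of the summed level of the family, ranged from 231.1 to 308.9 with overlap. Leaving out Ctrl replicate 1 gave 3 synaptotagmins higher and 3 lower, the most of any of the 15 alternatives.

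Of 30 SNAREs and docking or priming proteins, 29 were tested, 2 rose and 1 fell past the same threshold, close to the 4.33% and 3.07% of all genes, with a median of 0.02. *Cplx1*, a complexin that clamps the fusion machinery, was at 1.23, 0.813 and 1.73 FPKM in Ctrl and 2.29, 3.02 and 2.02 in cKO, and *Bsn*, a scaffold of the presynaptic zone, at 2.24, 2.17 and 2.53 in Ctrl and 3.22, 3.05 and 3.01 in cKO. *Vamp3*, a SNARE of recycling endosomes, was lower, at 23.4, 23.4 and 19.99 in Ctrl and 18.7, 19.1 and 17.0 in cKO. Without Ctrl replicate 2, 0 were higher and 0 lower. The number higher was also 0 without cKO replicate 2, and the number lower 0 without cKO replicate 1, without cKO replicate 3 and with voom, which called 4 higher. There were 3 lower without Ctrl replicate 1, and the median was -0.02. *Vamp3* and *Bsn* each lost an unadjusted p under 0.05 in 5 of the 15 alternatives and *Cplx1* in 2. *Vamp2*, *Snap25* and *Stx1a*, the SNAREs of insulin release, did not pass the test, although every cKO sample of *Snap25* was above every Ctrl sample.

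The next 3 lists are likewise set against the 4.33% and 3.07% of all genes. Of 22 endocytosis genes, 2 were higher and 0 lower, with a median of 0.00. *Sh3gl2* (endophilin A1, which bends the membrane of forming vesicles) was at 4.20, 4.87 and 5.13 FPKM in Ctrl and 7.37, 9.14 and 6.73 in cKO, and *Ap2b1*, a clathrin adaptor subunit, at 12.9, 10.4 and 10.7 in Ctrl and 15.8, 15.8 and 13.8 in cKO. The samples of the genotypes were apart in both, and both kept an unadjusted p under 0.05 in all 15 alternatives. Over these alternatives 2 to 4 genes of the list were higher and 0 to 1 lower. Of 22 proton pump genes, 18 were tested and 0 were higher and 1 lower, with a median of -0.03. *Atp6v1f* was at 100.3, 108.8 and 111.0 in Ctrl and 86.5, 90.7 and 90.5 in cKO, and over the 15 alternatives 0 to 1 genes of the list were higher and 0 to 4 lower. *Atp6v1f* lost an unadjusted p under 0.05 in 3 of the 15 alternatives. Of 6 genes of GABA and glycine handling, 4 were tested and 1 was lower. This was *Gad1*, named after its values were seen, at 7.99, 11.97 and 16.5 in Ctrl and 7.05, 6.18 and 8.36 in cKO, with overlap at Ctrl replicate 1. It lost an unadjusted p under 0.05 in 6 of the 15 alternatives, 5 of them with 1 sample left out. *Gad2*, named likewise, lay at 0.0293, 0.0541 and 0.143 in Ctrl and 0.194, 0.264 and 0.339 in cKO, without overlap, and did not pass (unadjusted p = 0.0514 and adjusted p = 0.679 from limma). Over the 15 alternatives 0 to 1 genes of the list were higher and 0 to 1 lower. *Slc6a6*, a taurine transporter and the most abundant gene of this list, was at 21.4, 25.8 and 31.9 in Ctrl and 30.7, 23.0 and 28.7 in cKO, with overlap.

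Over the 9 lists, which share no gene with the 10, 142 of 156 genes were tested. At an unadjusted p under 0.05, 19 were higher and 3 lower in cKO, or 13.4% and 2.11%, beside 4.33% and 3.07% of all genes tested, and 0 had an adjusted p under 0.05. Over the 15 alternatives the number higher ran from 12, without Ctrl replicate 2, to 32, with voom, and the number lower from 0, without cKO replicate 1, to 11, without Ctrl replicate 1. The lists were chosen with earlier results of these data known, so these shares describe them only.

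**Figure D2:**
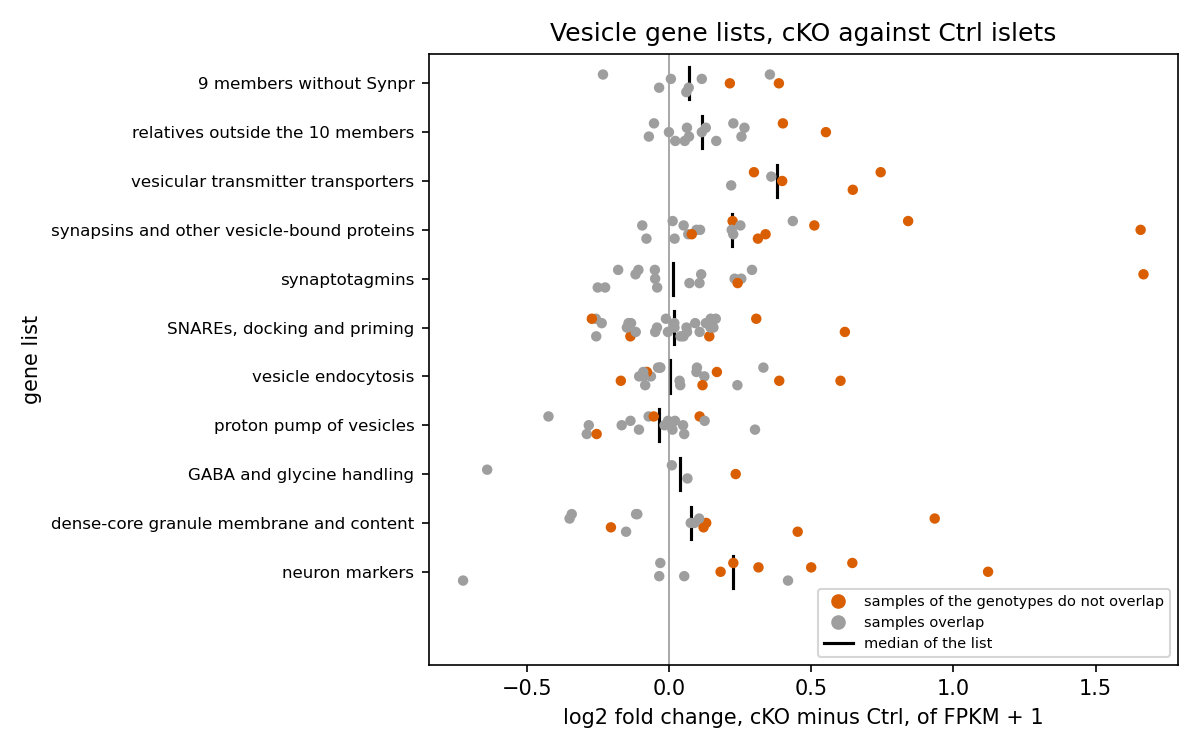
Log2 fold change of FPKM + 1, cKO minus Ctrl, for each tested gene of the vesicle lists, the 9 members without *Synpr* and the neuron markers; orange points are genes whose samples do not overlap between the genotypes, gray points genes whose samples overlap, and black bars the medians. *Rph3a* at 1.66 and *Syt10* at 1.67 lie farthest to the right, and the median of the vesicular transporters is 0.38.

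Likeness of pattern was measured by Pearson's r with *Synpr* over the 6 samples, among the 13362 others whose mean level was 1 FPKM or more. The 6 points share 2 genotypes, so a difference between the genotypes alone can raise r, and r is given as a description. The 5 genes most like *Synpr* were *Gbp9* (r = 0.996), *Pde7b* (0.993), *Limch1* (0.991), *Insyn1* (0.991) and the immunoglobulin segment *Igkv12-44* (0.989). *Gbp9*, an interferon-inducible GTPase, was at 2.86, 1.72 and 1.64 FPKM in Ctrl and 3.90, 4.68 and 4.37 in cKO, and *Pde7b*, which breaks down cAMP, at 0.967, 0.587 and 0.667 in Ctrl and 1.48, 1.599 and 1.595 in cKO. Like *Synpr*, both had their highest Ctrl value in replicate 1. *Tmem35b* (-0.993), *Vipr1* (-0.991) and *Vps37a* (-0.987) ran most nearly opposite. *Vipr1*, a receptor for vasoactive intestinal peptide, was at 9.81, 12.5 and 13.1 in Ctrl and 8.25, 7.34 and 7.91 in cKO.

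Of the other members at this level, *Syngr3* was closest to *Synpr* (r = 0.803) and *Sv2a* farthest (-0.688), while *Syp* had an r of 0.439. The pattern of *Syp* itself was most like those of *Tmem107* (r = 0.998), *Ddost* (0.987), *Rabggta* (0.979) and *Axin1* (0.9749) and of 1 gene without a symbol (0.989). *Ddost*, a subunit of the enzyme that adds sugars to new proteins, was at 150.01, 182.3 and 167.7 FPKM in Ctrl and 186.3, 179.5 and 193.4 in cKO, where cKO replicate 2 lay below Ctrl replicate 2. The physins thus differed from each other in how the 3 Ctrl samples were ordered: replicate 1 was the highest Ctrl sample for *Synpr* and the lowest for *Syp*.

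*Synpr* (ENSMUSG00000056296) lies on the plus strand of chromosome 14 from 13284780 to 13616340 in the file's coordinates, which are those of GRCm38. The annotation lists 9 transcripts of it, 4 of them protein coding, which begin at 13284780, 13425737, 13453958 and 13454029. The FPKM are sums over the gene, so the use of these starts was not analysed here. Within 500 kilobases of *Synpr* the file holds 16 other genes, of which 9 were tested, and 0 had an unadjusted p under 0.05 or samples that did not overlap. *Psmd6*, a proteasome subunit and the most abundant of them, was at 37.6, 35.0 and 29.1 FPKM in Ctrl and 32.5, 35.4 and 33.4 in cKO. *Cadps*, a priming factor of dense-core granules, was at 7.65, 8.06 and 9.62 in Ctrl and 9.18, 9.15 and 9.55 in cKO. Outside *Synpr* the nearest gene, the noncoding *Gm5087*, ends 142 bases before the start of *Synpr* on the other strand and was at 0.346, 0.234 and 0.262 in Ctrl and 0.305, 0.501 and 0.464 in cKO. All of these overlapped between the genotypes.

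Some members overlap other genes, and whether the counting used strand is not given in the sources used here. *Gm14703*, on the strand opposite *Syp*, shares 875 exon bases with it and was at most 0.516 FPKM. *Gm20075* lies in an intron of *Sv2c* on the same strand, with 0 shared exon bases, and was at 5.33, 5.56 and 5.76 in Ctrl and 5.72, 5.62 and 5.37 in cKO. It overlapped between the genotypes, unlike *Sv2c*. *Gm15913*, within *Synpr*, was at 0 in every sample. *Rpl3* overlaps the start of *Syngr1* on the other strand with 0 shared exon bases, and *Gm20708* shares 136 exon bases with *Syngr2* and was at 0. *1500012K07Rik* shares 47 exon bases with *Sv2b* and was at most 0.0967.

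The promoters of the 3 members whose cKO samples were all above the Ctrl samples are shown, although *Synpr* was selected on its rise and *Syp* did not pass the test. RefSeq promoters, 250 bases before to 50 after a gene's start in GRCm38.p6, were found by symbol for 8 of the 10 members. *Synpr* has 2 of them, at chr14:13284530-13284829 and chr14:13453708-13454007 on the plus strand. That of *Syp* is chrX:7638330-7638629 on the plus strand, and that of *Sv2c* is chr13:96132528-96132827 on the minus strand. All are printed 5′ to 3′ along the gene, with motif matches in capitals.
Synpr, upstream start: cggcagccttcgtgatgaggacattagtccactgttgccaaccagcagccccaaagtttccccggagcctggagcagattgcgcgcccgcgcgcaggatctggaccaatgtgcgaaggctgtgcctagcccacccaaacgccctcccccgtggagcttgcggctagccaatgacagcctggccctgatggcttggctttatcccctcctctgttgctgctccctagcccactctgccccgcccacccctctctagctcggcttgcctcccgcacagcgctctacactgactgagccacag
Synpr, downstream start: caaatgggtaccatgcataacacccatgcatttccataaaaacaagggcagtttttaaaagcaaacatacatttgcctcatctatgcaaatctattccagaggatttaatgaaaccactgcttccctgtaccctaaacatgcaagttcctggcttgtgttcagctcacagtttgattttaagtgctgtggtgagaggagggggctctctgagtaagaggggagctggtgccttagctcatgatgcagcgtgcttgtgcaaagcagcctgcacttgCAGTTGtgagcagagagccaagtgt
Syp: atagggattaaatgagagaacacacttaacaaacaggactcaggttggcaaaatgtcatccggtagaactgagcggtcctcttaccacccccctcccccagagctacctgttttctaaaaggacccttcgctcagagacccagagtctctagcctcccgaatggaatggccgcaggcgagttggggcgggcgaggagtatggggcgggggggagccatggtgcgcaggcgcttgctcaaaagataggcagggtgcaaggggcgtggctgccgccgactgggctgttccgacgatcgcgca
Sv2c: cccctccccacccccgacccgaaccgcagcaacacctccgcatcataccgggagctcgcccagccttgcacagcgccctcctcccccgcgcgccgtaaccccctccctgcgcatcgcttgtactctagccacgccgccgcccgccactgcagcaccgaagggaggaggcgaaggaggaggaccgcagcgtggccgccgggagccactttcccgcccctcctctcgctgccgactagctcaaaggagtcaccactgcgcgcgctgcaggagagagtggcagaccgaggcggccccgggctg

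They were searched on both strands for 3 motifs: TGACG, the core of the cAMP response element, CAGNTG, an E-box of the kind bound by factors such as NeuroD1, and TTCNNNGAA, the gamma-activated STAT site. The only match in the 4 windows was an E-box at the downstream start of *Synpr*. The E-box is present in 51.4% of all 32851 promoters of this length, the TGACG core in 20.8% and the STAT site in 8.30%. A window without a match lacks only these letters. The bases were 63.7% G or C at the upstream and 46.0% at the downstream start of *Synpr*, 59.0% in *Syp* and 71.7% in *Sv2c*, against a median of 52.7% over all promoters.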

How the data were processed

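RNA of islets was sequenced by the authors from total RNA extracted with TRIzol, with SMARTER mRNA libraries. They deposited FPKM per gene and sample, with replicates kept apart. The labels name GRCm38 (mm10), while the aligner and counter are not given in the sources used here. When each FPKM was multiplied by gene length, 100% of the values were whole multiples of 1 read (tolerance 0.05), so read numbers were recovered. The library sizes implied by the FPKM ran from 15731223 to 18085944, and 1 read on 1 kilobase equals an FPKM of 0.0553 to 0.0636. Reads counted on genes ran from 16289408 to 17944775. They exceeded the implied size in every Ctrl sample and were below it in every cKO sample, so the implied sizes are not read totals. Intervals from read numbers cover counting error only.

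Samples were grouped by genotype label. log2(FPKM + 1) was compared in R 4.3.3 by limma 3.58.1 (a linear model of genotype with moderated variances that follow the mean level, two-sided p-values adjusted by Benjamini-Hochberg) over the 21211 genes whose mean level reached 0.1 FPKM, where the authors used DESeq2. The code was tested on simulated data. Tables and figures were made with Python 3.11.15.

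The members and lists were chosen with earlier results of these data known. The genes named are the 10 members, genes of each list (not all of them for the neuron and α cell markers) with an unadjusted p under 0.05 and no overlap between genotypes (or else its most abundant gene), the genes most like *Synpr* and *Syp* in pattern, and genes near or overlapping members. *Ucn3*, *Col3a1*, *Nefl* and *Gad1*, which overlap, *Chgb*, *Ehhadh* and *Phlda3*, sex-linked genes and genes given for contrast were named after their values were seen. The 15 alternatives were a pseudocount of 0.1, no filter, a minimum mean of 1, 2 other scalings, no trend, sample weights, voom, the replicate number as a block, and each of the 6 samples left out. In pairs of replicates, read numbers differed by more than sampling noise.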

Additional observations from a re-analysis of the deposited data

How the results depend on the processing

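The log2 fold change of *Synpr* lay between 0.82 and 1.21 in all 15 alternatives, which describes a gene selected on its rise in these same samples. *Syp* (0.14 to 0.31), *Syngr3* (0.26 to 0.54), *Sv2a* (-0.48 to -0.05) and *Sv2b* (0.07 to 0.31) kept their direction in all 15. *Sv2c*, which the filter at a mean of 1 removes, stayed between 0.32 and 1.08 in 14. The sign of 4 others changed. *Sypl* was at 0.0483 with sample weights, at 0.0462 with voom and between -0.15 and 0.0605 with 1 sample left out. *Syngr1* was at -0.0151 with sample weights and between -0.10 and 0.16 with 1 left out, and *Syngr2* at -0.0123 with sample weights and between -0.10 and 0.16 with 1 left out. *Syngr4* was at -7.81e-05 when scaled without *Ins1* and *Ins2*, at -0.00205 with sample weights and between -0.0754 and 0.12 with 1 left out. None of these had an unadjusted p under 0.05, and the cause was not tested.

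The number of members other than *Synpr* past an unadjusted p of 0.05 was 1. It was 0 with a minimum mean of 1, which removes *Sv2c*, and 2 with sample weights, 2 with voom and 0 to 2 with 1 sample left out. Over all genes, voom gave 2 past an adjusted p of 0.05, 1500 higher and 328 lower at an unadjusted p under 0.05. Sample weights gave 1245 lower. Leaving out 1 sample gave 0 to 1 past the adjusted p, 709 to 1251 higher and 402 to 1173 lower, and 4297 to 6159 without overlap, since fewer samples separate more easily. The causes of the other shifts were not tested. voom scaled to reads counted on the tested genes and moved the median log2 fold change of all genes from -0.01 to 0.07. Reads counted on genes were above the implied library size in every Ctrl sample and below it in every cKO sample.

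Whether the replicate numbers pair the samples is not stated in the labels. The deviations of same-numbered samples correlated at -0.171, -0.0219 and -0.0652, and those of different-numbered samples at -0.0775 to 0.130. With 3 samples a group these values cannot decide whether samples share a batch or litter. With the replicate number as a block, 0 members and 0 genes at the adjusted threshold passed, and 737 genes were higher and 538 lower at an unadjusted p under 0.05. The p of *Sv2c* was then 0.0535.

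With 3 samples a group and 3 to 9 reads on *Syngr4* or 52 to 178 on *Sv2c*, changes in low genes are read with wide error. The part of islet purity, sex, Cre itself and animals per sample in these results was not tested.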

Other observations

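Dense-core granules are the other vesicle class of islet cells. Of 13 granule genes, all tested, 2 were higher in cKO at an unadjusted p under 0.05 and 0 were lower, beside 4.33% and 3.07% of all genes tested, and 0 had an adjusted p under 0.05. The median log2 fold change was 0.08, and without Ctrl replicate 1 it was -0.04 with 1 gene lower. Over the 15 alternatives 1 to 4 of the 13 were higher and 0 to 1 lower. *Chgb* (chromogranin B) was at 780.7, 740.6 and 725.9 FPKM in Ctrl and at 1461, 1413 and 1422 in cKO. The samples within each genotype lay close together and the genotypes far apart, and the log2 fold change was 0.93 (SE 0.157, unadjusted p = 0.000749 and adjusted p = 0.308 from limma, 0.0361 with voom). *Chga*, its relative, was at 4684, 4481 and 4525 in Ctrl and 4495, 4173 and 3981 in cKO, with overlap. *Pcsk1*, a convertase of proinsulin, was at 128.2, 144.6 and 105.4 in Ctrl and 158.0, 170.6 and 187.0 in cKO. Without cKO replicate 3 the unadjusted p of *Pcsk1* was 0.0624.

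Of 16 relatives of the physins and SV2 proteins outside the 10 members, 15 were tested, 2 were higher in cKO at an unadjusted p under 0.05 (2 to 3 over the 15 alternatives) and 0 were lower, beside 4.33% and 3.07% of all genes, with a median log2 fold change of 0.12. *Cmtm6*, which keeps membrane proteins at the cell surface, was at 20.4, 19.7 and 17.5 FPKM in Ctrl and 25.2, 29.1 and 31.6 in cKO. *Ocln* (occludin), a tight junction protein with the same membrane fold as the physins, was at 2.88, 2.41 and 2.38 in Ctrl and 4.03, 3.73 and 3.31 in cKO. All cKO samples were above all Ctrl samples in both. *Svop*, a relative of the SV2 proteins, was at 2.79, 3.91 and 4.37 in Ctrl and 4.30, 4.19 and 5.17 in cKO, with overlap.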
